A study of Mus musculus with 7 samples.

Results

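The expression and exon usage of 8 calcium signalling genes are described: the calmodulin genes Calm2 and Calm3, the calmodulin-binding protein gene Nrgn (neurogranin), the 4 genes for subunits of calcium/calmodulin-dependent kinase II (CaMKII), namely Camk2a, Camk2b, Camk2d and Camk2g, and the gene for CaM kinase IV, Camk4. They were picked by gene name, and all 8 were found among 38924 gene records. Their exons are divided into 211 of the 359565 exon bins, which are the non-overlapping pieces into which DEXSeq cuts the exons of a gene. The measurements are RNA-seq of polyadenylated RNA dissected from adult mouse hippocampus. The 7 libraries comprise 3 of Ammon's horn (the CA fields) of mice with both copies of Khdrbs3 deleted, 1 of wild-type dentate gyrus, and 3 of wild-type Ammon's horn. Khdrbs3 encodes T-STAR, an RNA-binding splicing regulator that neurons express. Per the labels the null allele was bred onto C57Bl6 for 8 generations, a background given for every group. Whether the libraries are from separate animals is not stated in the labels, and the p-values therefore measure only the spread between these libraries.

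Calmodulin is the small sensor that binds calcium entering a neuron and then switches on other proteins. CaMKII, one of the most abundant proteins of the postsynaptic density of hippocampal neurons, is a ring of alpha, beta, gamma and delta subunits held together by their association domains, and its activity is needed for long-term potentiation. Neurogranin holds calmodulin at low calcium in dendritic spines, and CaM kinase IV works mainly in the nucleus, where it phosphorylates CREB. The comparisons asked whether loss of Khdrbs3 altered the level or exon usage of these genes in Ammon's horn, and how the dentate gyrus differed from Ammon's horn.

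The libraries held between 50230733 and 67692326 counts in the gene table, which counts reads over the whole gene with introns, and between 29698245 and 39904606 in exon bins. Exon bin 2 of Khdrbs3 held 6, 9 and 7 reads in the knockout libraries, 506 in the dentate gyrus library and 808, 1103 and 964 in the wild-type Ammon's horn libraries. The summed level of 9 dentate granule cell markers was 891.5 CPM in the dentate gyrus, against 126.6 to 160.6 CPM in wild-type Ammon's horn. That of 7 CA1 pyramidal cell markers was 192.9 CPM against 928.3 to 966.8 CPM. The summed level of 7 CA2 and CA3 pyramidal cell markers was higher, at 433.4 CPM against 355.5 to 386 CPM. Among these 7, Pcp4 had 88.48 CPM against 43.42 to 48.1 CPM, and Rgs14 had 54.53 CPM against 66.37 to 79.64 CPM. CPM are counts scaled to a common library size, here after TMM scaling, a correction for library composition. The summed level of 12 choroid plexus markers was 1159.7 and 1134 CPM in knockout libraries 1 and 3 and 138.8 CPM in knockout library 2, against 132.8 to 312.8 CPM in wild-type Ammon's horn. The 8 oligodendrocyte markers summed to 3679 to 3938 CPM in the knockout, 1504 CPM in the dentate gyrus and 4307 to 4469 CPM in wild-type Ammon's horn.

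The dentate gyrus differed from Ammon's horn in 7 of the 8 genes, while none of the 8 passed the test in the Khdrbs3 knockout. In the dentate gyrus library Camk2b and Camk2g were 1.49-fold and 1.45-fold higher than in wild-type Ammon's horn, whereas Camk2d, Camk4, Calm2, Nrgn and Calm3 were lower. Camk2a, the most abundant CaMKII transcript, did not pass. Genes were called at an adjusted p under 0.05 (edgeR quasi-likelihood test with Benjamini-Hochberg adjustment over all genes tested). Of all genes, 22.0% were called in the dentate gyrus comparison, with 11.2% higher and 10.9% lower, and 0.0745% were called in the knockout comparison. The same 7 genes had an unadjusted p under 0.05 in the dentate gyrus, beside 34.3% of all genes. The dentate gyrus group is a single library with no replicate, and its test borrows the spread of the other groups. In such dissected tissue, fewer cells of a type and less RNA per cell cannot be told apart.

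**Figure D1:**
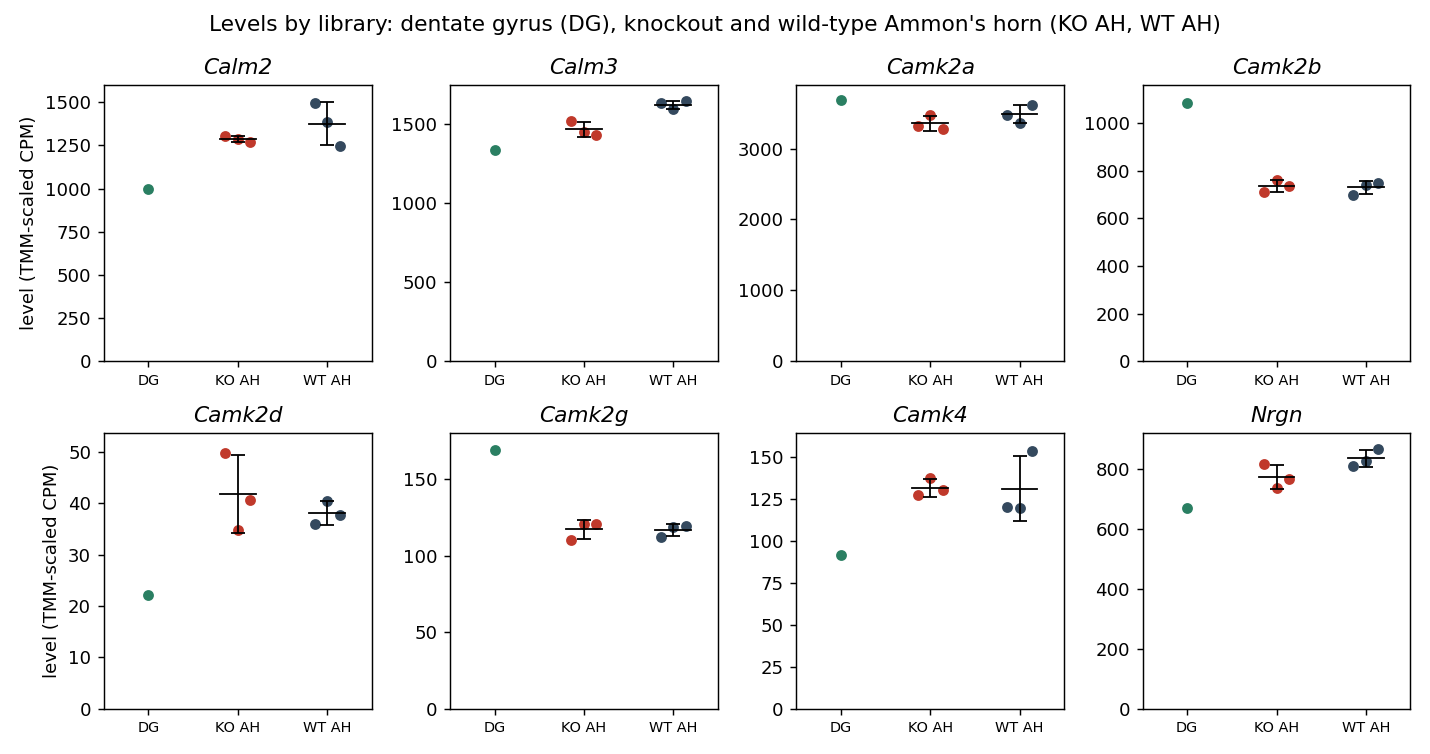
Level of each gene in each library, in TMM-scaled CPM on axes that start at 0, for wild-type dentate gyrus (DG, 1 library), knockout Ammon's horn (KO AH, 3 libraries) and wild-type Ammon's horn (WT AH, 3 libraries). Points are libraries, and bars give the mean and SD of groups of 3. The dentate gyrus point lies outside the range of the 6 Ammon's horn points in all 8 panels, above it for Camk2a, Camk2b and Camk2g and below it for the other 5 genes.

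Calm2 (ENSMUSG00000036438.6; mm10 chromosome 17, 87433412 to 87446935, minus strand) had 1304, 1285 and 1271 CPM in the knockout libraries, 999.6 CPM in the dentate gyrus library and 1494, 1386 and 1247 CPM in wild-type Ammon's horn. The knockout values lay within the wild-type range, and the dentate gyrus value lay below all 6 Ammon's horn values. Calm2 fell in the dentate gyrus by 0.46 on the log2 scale (edgeR adjusted p = 0.00553, SE 0.09), a level of 0.727 times that of wild-type Ammon's horn. In the knockout its log2 fold change was -0.10 (edgeR adjusted p = 0.735, SE 0.07).

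Calm3 (ENSMUSG00000019370.10; chromosome 7, 16915379 to 16924114, minus strand) had 1523, 1451 and 1435 CPM in the knockout, 1338 CPM in the dentate gyrus and 1633, 1597 and 1647 CPM in wild-type Ammon's horn. It was the only one of the 8 genes whose knockout and wild-type libraries did not overlap, a separation that 13.2% of all genes tested showed. Its log2 fold change in the knockout was -0.14 (SE 0.05), with an unadjusted p of 0.0126 and an edgeR adjusted p of 0.485, so that it was not called. It was also the only one of the 8 genes with an unadjusted p under 0.05, against 8.38% of all genes. Calm3 fell in the dentate gyrus by 0.28 (edgeR adjusted p = 0.0129, SE 0.07), to 0.823 times the wild-type level. The summed level of the 8 oligodendrocyte markers was also below every wild-type library in all 3 knockout libraries, with 1 of the 8 called lower. The summed levels of 8 microglia markers (352.4 to 367 CPM in the knockout, 391.2 to 403 CPM in wild-type Ammon's horn) and of 7 CA1 markers (861 to 926 CPM in the knockout, 928.3 to 966.8 CPM in wild-type Ammon's horn) separated in the same direction. Those of 8 interneuron markers (682 to 721.3 CPM in the knockout, 600.6 to 678.7 CPM in wild-type Ammon's horn) and the mitochondrial share of counts (11.1% to 14.1% in the knockout, 10.4% to 10.9% in wild-type Ammon's horn) separated in the other. The part of these in the Calm3 values was not tested.

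Calm2 and Calm3 encode the same protein from different coding sequences, so it matters whether reads can be assigned to one gene. In GENCODE M21 models on the same build (GRCm38), the 450-base coding sequences of Calm2 and Calm3 were 82.7% identical. They differed at 78 bases, 74 of them at the third position of a codon, and the longest identical run was 17 bases. The exon shown here is the same 107-base piece of the protein in each gene, exon bin 5 of Calm2 (chr17:87435604-87435710, minus strand) and exon bin 12 of Calm3 (chr7:16917386-16917492, minus strand), with capitals at the 22 bases that differ.
Calm2 bin 5: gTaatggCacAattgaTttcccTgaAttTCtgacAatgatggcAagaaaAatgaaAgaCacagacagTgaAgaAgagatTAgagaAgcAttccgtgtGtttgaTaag
Calm3 bin 12: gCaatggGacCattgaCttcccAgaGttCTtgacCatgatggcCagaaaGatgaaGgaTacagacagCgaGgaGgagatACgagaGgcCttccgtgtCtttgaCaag
The differing bases are spread along the whole exon. Of Calm2's exon-bin reads, bin 5 took 17.5% ± 0.23 in the knockout, 16.8% in dentate gyrus and 17.7% ± 0.28 in wild-type Ammon's horn (SD, n = 3 in each Ammon's horn group).

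Calm2's share of the reads of both genes, per kilobase of exon, was 63.9%, 65.1% and 64.8% in the knockout, 60.8% in dentate gyrus and 65.1%, 63.2% and 60.7% in wild-type Ammon's horn. The knockout mean was 64.6% ± 0.66 and the wild-type mean 63.0% ± 2.19 (SD, n = 3 each), a difference that did not pass an exact two-sided permutation test (p = 0.3, where 0.1 is the smallest that 3 against 3 allows). The difference was 1.59 points, but 0.445 points without wild-type library 3 and 2.62 points without wild-type library 1. The dentate gyrus share was inside the wild-type range, near its lower end. From gene-table counts per kilobase of gene span it was 32.5% in the dentate gyrus, below all 6 Ammon's horn libraries, whose wild-type mean was 35.3% ± 2.21.

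Nrgn (ENSMUSG00000053310.5; chromosome 9, 37544492 to 37552904, minus strand) had 819.3, 737.9 and 768.2 CPM in the knockout, 671.1 CPM in the dentate gyrus and 812.3, 828.5 and 868.8 CPM in wild-type Ammon's horn. It fell in the dentate gyrus by 0.32 (edgeR adjusted p = 0.0171, SE 0.08). In the knockout, 2 of the 3 libraries were below the wild-type range and the third was within it, and the log2 fold change of -0.11 (SE 0.06) was not called (edgeR adjusted p = 0.642). Both calmodulin genes and the neurogranin gene, whose protein binds calcium-free calmodulin, were thus lower in the dentate gyrus library.

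Camk2a (ENSMUSG00000024617.10; chromosome 18, 60925618 to 60988152, plus strand) encodes CaMKII alpha, the subunit that predominates in forebrain excitatory neurons. It had 3322, 3477 and 3275 CPM in the knockout, 3691 CPM in the dentate gyrus and 3478, 3361 and 3622 CPM in wild-type Ammon's horn. The dentate gyrus value was the highest of the 7, but its log2 fold change of 0.08 (SE 0.06) was not called (edgeR adjusted p = 0.413). Over the alternatives run, the dentate gyrus log2 fold change of Camk2a lay between 0.0558 and 0.165. The knockout log2 fold change was -0.05 (edgeR adjusted p = 0.806, SE 0.05).

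Camk2b (ENSMUSG00000057897.8; chromosome 11, 5969644 to 6066362, minus strand) encodes CaMKII beta, which binds actin filaments and brings the holoenzyme to them. It had 712.7, 762 and 737.5 CPM in the knockout, 1087 CPM in the dentate gyrus and 699.7, 742.8 and 748.9 CPM in wild-type Ammon's horn. The dentate gyrus library stood well above the other 6, with a log2 fold change of 0.57 (edgeR adjusted p = 0.00035, SE 0.07), the smallest adjusted p of the 8 genes. The knockout and wild-type libraries overlapped, with a log2 fold change of 0.01 (edgeR adjusted p = 0.967, SE 0.05).

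Camk2g (ENSMUSG00000021820.10; chromosome 14, 20734875 to 20794088, minus strand) encodes CaMKII gamma, which can carry calmodulin from the cell surface to the nucleus. It had 110.1, 120.6 and 120.5 CPM in the knockout, 168.6 CPM in the dentate gyrus and 112.3, 118.5 and 119 CPM in wild-type Ammon's horn. It rose in the dentate gyrus by 0.53 on the log2 scale (edgeR adjusted p = 0.000741, SE 0.08). In the knockout its log2 fold change was 0.01 (SE 0.05), not called.

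Camk2d (ENSMUSG00000053819.10; chromosome 3, 126596302 to 126844913, plus strand) encodes CaMKII delta, the main form of heart muscle, and was the least abundant of the 8. It had 49.76, 34.77 and 40.65 CPM in the knockout, 22.13 CPM in the dentate gyrus and 35.92, 40.5 and 37.6 CPM in wild-type Ammon's horn. It fell in the dentate gyrus by 0.78 (edgeR adjusted p = 0.00671, SE 0.16), to 0.582 times the wild-type level. That was the largest change among the 8 genes. The knockout log2 fold change of 0.13 (edgeR adjusted p = 0.782, SE 0.11) rested on knockout library 1. It was -0.01 without that library and -0.02 with the choroid plexus marker level as a covariate. Library 1 was also 1 of the 2 with high choroid plexus markers, and the other, knockout library 3, had 40.65 CPM of Camk2d. The source of the library 1 value was not tested.

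Camk4 (ENSMUSG00000038128.6; chromosome 18, 32939041 to 33195767, plus strand) had 127.2, 137.6 and 130.6 CPM in the knockout, 91.54 CPM in the dentate gyrus and 120.3, 120 and 153.7 CPM in wild-type Ammon's horn. It fell in the dentate gyrus by 0.52 (edgeR adjusted p = 0.016, SE 0.13). The knockout values lay inside the wild-type range, with a log2 fold change of 0.01 (edgeR adjusted p = 0.993, SE 0.09). A gene on the opposite strand, 2310026I22Rik, overlaps it and had 115, 149 and 97 counts in the knockout, 55 in dentate gyrus and 99, 84 and 108 in wild-type Ammon's horn. The sources used here do not say whether the counting used strand.

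**Figure D2:**
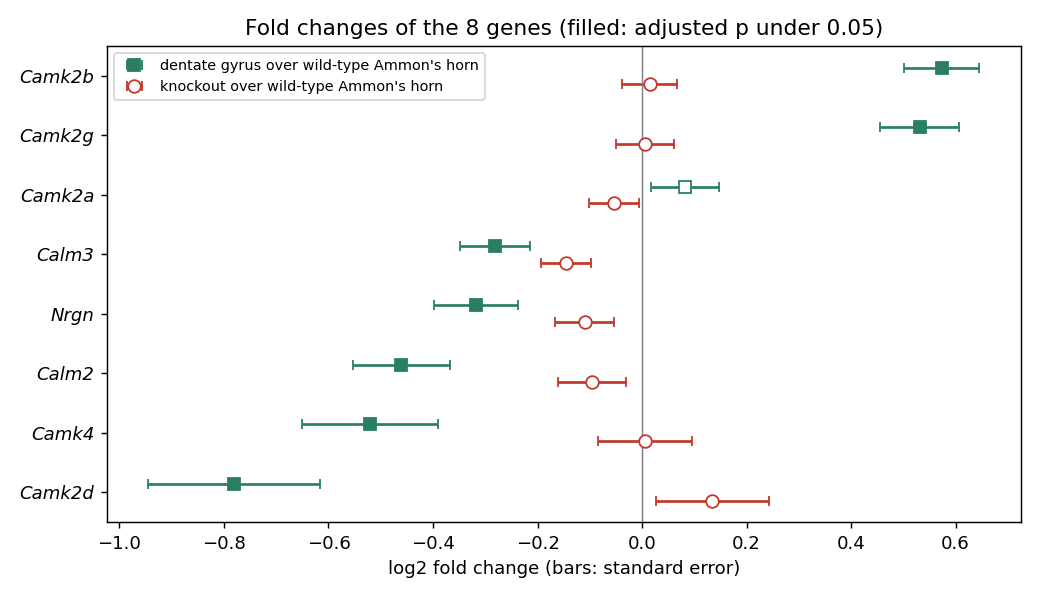
Log2 fold change of each gene over wild-type Ammon's horn, with its standard error, for the dentate gyrus (squares) and the knockout (circles), from edgeR. Filled symbols had an adjusted p under 0.05. Camk2b and Camk2g lie to the right at 0.57 and 0.53, 5 genes lie to the left between -0.28 and -0.78, and every knockout symbol is open.

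All 8 dentate gyrus values lay outside the range of the 6 Ammon's horn libraries, as 56.9% of all genes tested did. The median log2 fold change of the 8 genes was -0.30 in the dentate gyrus, beside -0.01 over all genes, and -0.02 in the knockout, beside 0.00149 over all genes. Oligodendrocyte markers, 8 of 8, and interneuron markers, 5 of 8 with 1 higher, fell in the dentate gyrus, as did 7 of 7 CA1 markers, while 9 of 9 granule cell markers rose. Of the 7 CA2 and CA3 markers 2 rose and 1 fell in the dentate gyrus. They summed to more there than in any Ammon's horn library. None of the markers averaged below 1 CPM. Their part in the differences of the 8 genes was not tested. The knockout signs of Camk2b, Camk2g and Camk4 turned negative with exon-bin sums in place of the gene table, at -0.02, -0.01 and -0.01.

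As CPM per kilobase of exon, which allows levels to be set beside each other between genes, Calm2 stood highest in wild-type Ammon's horn at 1896 ± 188, followed by Calm3 at 1108 ± 14.9, Nrgn at 987.3 ± 23.2 and Camk2a at 861.9 ± 42.9 (SD, n = 3). Camk2b followed at 313.5 ± 11.4, Camk2g at 47.3 ± 1.18, Camk4 at 26.8 ± 6.95 and Camk2d at 16.1 ± 2.06. No 2 neighbours in this order overlapped between their 3 wild-type libraries. In the knockout libraries Calm3 at 969.7 ± 35.8 and Nrgn at 925.6 ± 54.6 overlapped. In the dentate gyrus library Camk2a at 966 stood second, after Calm2 at 1378 and ahead of Calm3 at 888 and Nrgn at 811.2. These levels use the longest coding model of each gene, or bins 2 to 10 for Camk4, and a read that touches 2 bins is counted in each, so the distances between genes are approximate. The Camk4 level leaves out its last bin, which held 79.7% of its exon-bin reads in wild-type Ammon's horn. Its place in the order may depend on that choice.

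The subunit make-up of CaMKII transcripts was taken as each gene's share of the exon-bin reads per kilobase of Camk2a, Camk2b, Camk2d and Camk2g. Camk2a made up 69.2%, 69.9% and 67.5% in the knockout, 64.3% in dentate gyrus and 70.1%, 68.6% and 70% in wild-type Ammon's horn. Camk2b made up 25.2%, 25.1% and 26.8% in the knockout, 30.4% in dentate gyrus and 24.9%, 25.9% and 25.1% in wild-type Ammon's horn. The dentate gyrus thus had a CaMKII alpha share below, and a beta share above, every Ammon's horn library. Camk2g had 3.92% ± 0.21 in the knockout, 4.63% in dentate gyrus and 3.82% ± 0.13 in wild-type Ammon's horn (SD, n = 3 in each Ammon's horn group). Camk2d had 1.54% ± 0.33 in the knockout, 0.678% in dentate gyrus and 1.30% ± 0.18 in wild-type Ammon's horn.

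No share passed the test in the knockout. The Camk2a share was 0.70 percentage points lower (exact permutation p = 0.5), the Camk2b share 0.36 points higher (p = 0.6, exact), the Camk2d share 0.24 points higher (p = 0.3, exact) and the Camk2g share 0.10 points higher (p = 0.6, exact). With 3 against 3 libraries this two-sided test cannot go below 0.1. With 1 library left out, the difference lay between -1.20 and -0.02 points for Camk2a, the value nearest 0 being without knockout library 3, and between 0.08 points, without knockout library 1, and 0.41 points for Camk2d. The dentate gyrus Camk2a share was 5.24 points lower and the Camk2b share 5.05 points higher than the wild-type mean, which is a description of 1 library.

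The annotated models of all 4 genes hold the same run of 10 exon lengths, mostly in the kinase domain, which phosphorylates targets. In Camk2a, Camk2b and Camk2g, 9 of these exons are whole bins and sum to 735 bases in each gene, so reads in them can be set side by side with no length correction. Over these 9 exons alone, chosen after the data were seen, Camk2a took 76.3% ± 0.95 of the reads of the 3 genes in the knockout, 70.8% in dentate gyrus and 76.6% ± 0.65 in wild-type Ammon's horn (SD, n = 3). Camk2b took 19.3% ± 0.64 in the knockout, 23.9% in dentate gyrus and 19.2% ± 0.31 in wild-type Ammon's horn. The dentate gyrus thus stood apart from all 6 Ammon's horn libraries here too, and the exact permutation p of the knockout differences was 0.7 for Camk2a and 0.8 for Camk2b.

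**Figure D3:**
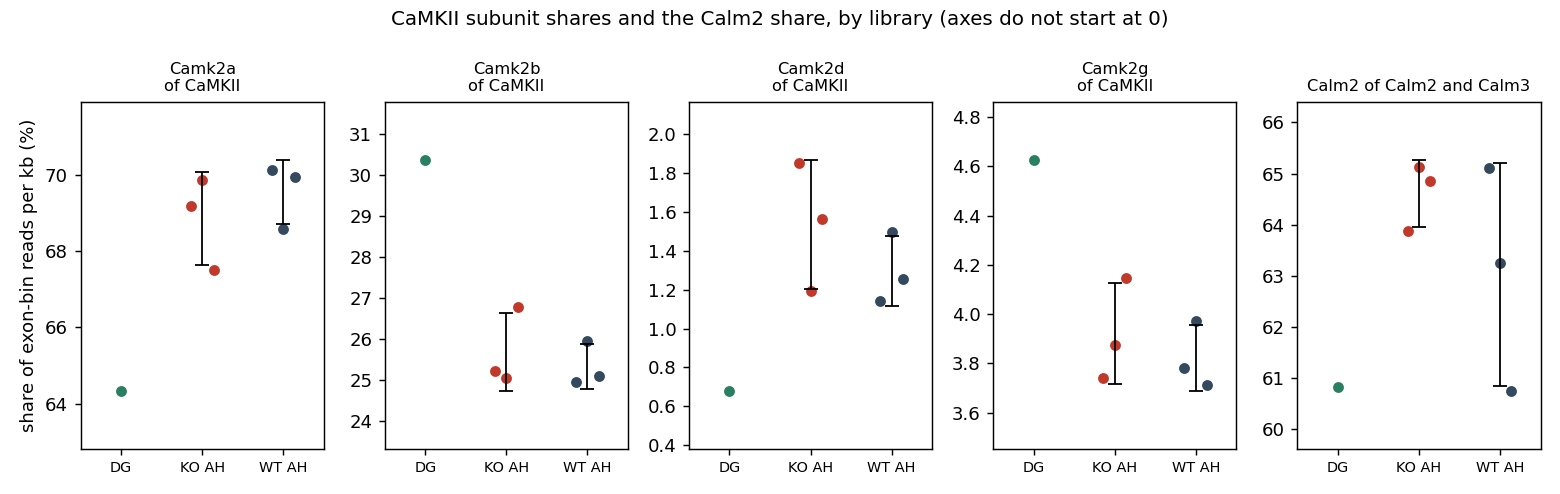
Share of each subunit gene in the exon-bin reads per kilobase of the 4 CaMKII genes, and share of Calm2 in Calm2 plus Calm3, in percent on axes that do not start at 0. Points are libraries of the dentate gyrus (DG, 1), knockout Ammon's horn (KO AH, 3) and wild-type Ammon's horn (WT AH, 3), with SD bars. The dentate gyrus is lowest for Camk2a (64.3%) and Camk2d (0.678%) and highest for Camk2b (30.4%) and Camk2g (4.63%), while knockout and wild-type points overlap in all 5 panels.

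Between the kinase and the association domain the CaMKII genes carry a linker whose exons are spliced in or out, which sets where the enzyme goes in the cell and how readily it responds to calcium. Because Khdrbs3 regulates splicing, the exon bins were tested for usage, that is, for a change of a bin relative to its whole gene (edgeR diffSpliceDGE). Of the 211 bins, 38 had fewer than 10 reads in every library, and 7 of those had none. In the knockout 166 bins were tested and 0 were called, beside 0.00301% of all bins, and 4 had an unadjusted p under 0.05, or 2.41% of the 166 beside 1.72% of all bins. For the dentate gyrus 168 were tested and 0 were called, beside 0.213% of all bins, and 3 had an unadjusted p under 0.05, or 1.79% of the 168 beside 3.89% of all bins. The limma-voom test of usage also called 0 in both comparisons.

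The linker exons of Camk2b and Camk2g that are each 45 bases long, bin 19 of Camk2b (chr11:5981070-5981114, minus strand) and bin 6 of Camk2g (chr14:20744604-20744648, minus strand), are shown because they sit at the same place between the domains and because Camk2b bin 19 was low in the dentate gyrus library. Capitals mark the 13 bases that differ, and 71.1% were identical.
Camk2b bin 19: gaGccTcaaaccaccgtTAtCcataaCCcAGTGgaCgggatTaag
Camk2g bin 6: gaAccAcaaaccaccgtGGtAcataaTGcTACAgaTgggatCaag
The third sequence is the 33-base linker exon of Camk2g, bin 8 (chr14:20747819-20747851, minus strand), with capitals on the in-frame run of 3 lysine or arginine codons. A related basic exon of CaMKII delta is known to carry a nuclear localisation signal.
Camk2g bin 8: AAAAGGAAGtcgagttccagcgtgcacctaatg
Sequences are GENCODE M21 transcript sequence, 5′ to 3′ on the coding strand.

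Camk2b bin 19 held 1146, 1230 and 920 reads in the knockout, 1306 in dentate gyrus and 906, 1348 and 1138 in wild-type Ammon's horn. Relative to the mean of the 2 neighbouring constant bins, 21 and 18, this was 104%, 91.1% and 91.9% in the knockout, 71.1% in dentate gyrus and 95.6%, 98.8% and 94.7% in wild-type Ammon's horn. The dentate gyrus library was below all 6 others, while the knockout libraries lay on both sides of the wild type. Its usage log2 fold change in the dentate gyrus was -0.33 (SE 0.12), with an unadjusted p of 0.00883 and an edgeR adjusted p of 0.815, so that it was not called. As a share of all Camk2b exon-bin reads it took 2.63% ± 0.20 in the knockout, 2.02% in the dentate gyrus (exact 95% Clopper-Pearson interval 1.91% to 2.13%, counting error only) and 2.53% ± 0.15 in wild-type Ammon's horn.

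The matching exon of Camk2g, bin 6, held 190, 194 and 159 reads in the knockout, 290 in dentate gyrus and 178, 215 and 213 in wild-type Ammon's horn. This was 97.9% ± 7.14 of its constant neighbours in the knockout, 105% in dentate gyrus and 97.6% ± 3.62 in wild-type Ammon's horn (SD, n = 3). Its usage in the dentate gyrus changed by -0.04 (SE 0.13, edgeR adjusted p = 1), not called. Whether the 45-base exons of the 2 genes differed from each other in their dentate gyrus usage was not tested.

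Camk2a bin 22, of 33 bases, held 77, 121 and 88 reads in the knockout, 98 in dentate gyrus and 81, 102 and 120 in wild-type Ammon's horn, where the neighbouring bins 21 and 23 held between 3662 and 5679 reads. It stood at 2.16% ± 0.30 of its neighbours in the knockout, 1.78% in dentate gyrus and 2.16% ± 0.19 in wild-type Ammon's horn. Its usage was not called in either comparison.

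The 33-base bin 8 of Camk2g held 116, 116 and 98 reads in the knockout, 187 in dentate gyrus and 117, 143 and 144 in wild-type Ammon's horn. That was 59.6% ± 5.01 of its neighbours in the knockout, 67.6% in dentate gyrus and 65.0% ± 3.20 in wild-type Ammon's horn. The knockout usage log2 fold change was -0.22 (SE 0.12, edgeR adjusted p = 1), not called. The 69-base bin 7 of Camk2g stood at 57.0% ± 2.11 in the knockout, 62.2% in dentate gyrus and 54.6% ± 3.92 in wild-type Ammon's horn.

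In Camk2b, the 75-base bin 24 stood at 114% ± 1.20 of its neighbours in the knockout, 112% in dentate gyrus and 116% ± 2.16 in wild-type Ammon's horn. The 72-base bin 20 stood at 130% ± 0.54 in the knockout, 134% in dentate gyrus and 134% ± 2.70 in wild-type Ammon's horn. The 3 knockout libraries lay below the 3 wild-type libraries for bin 20 (exact permutation p = 0.1, the smallest possible), but in the fit over all bins its usage log2 fold change was 0.03 (SE 0.09, edgeR adjusted p = 1). A longer bin catches more reads than a short one, so these percentages compare libraries, not exons. Bins 15, 16 and 17 of Camk2b, further exons of some coding models, held at most 14 reads in any library.

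**Figure D4:**
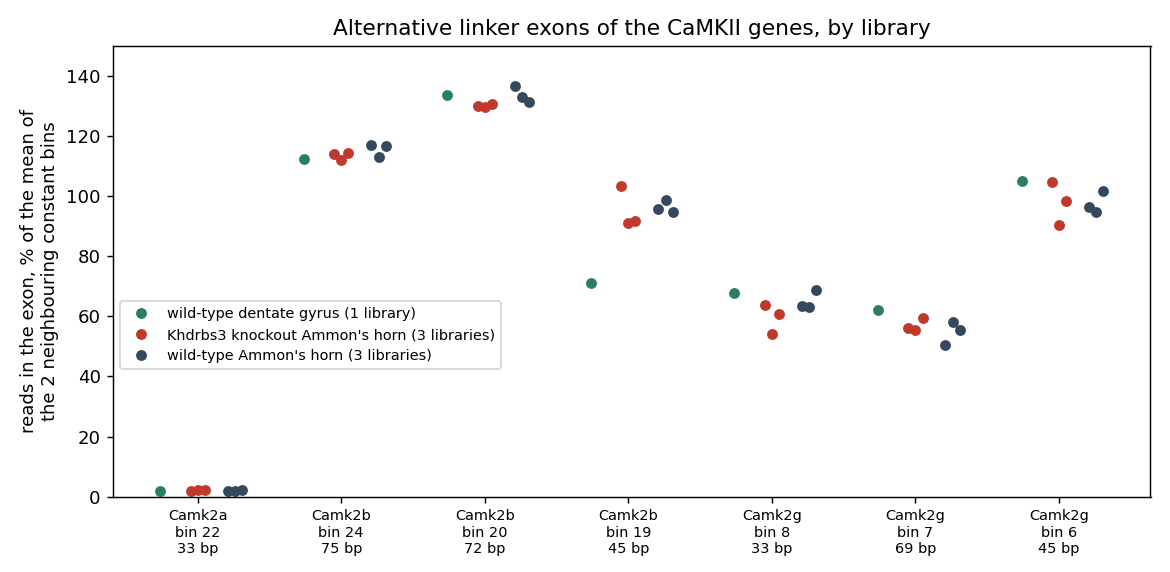
Reads in 7 linker exons of Camk2a, Camk2b and Camk2g as a percentage of the mean of the 2 neighbouring constant bins, with 1 point per library of the dentate gyrus (1), knockout (3) and wild-type Ammon's horn (3). Camk2a bin 22 lies near 2% in every library, and Camk2b bin 19 is the exon where the dentate gyrus, at 71.1%, lies farthest below the Ammon's horn libraries.

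Elsewhere in the genes the smallest p in the knockout belonged to Camk2b bin 22, a 3-base extension of an exon. It held 16, 15 and 10 reads in the knockout, 18 in dentate gyrus and 4, 10 and 9 in wild-type Ammon's horn. Its usage log2 fold change was 0.91 (SE 0.39) with an unadjusted p of 0.0196 and an edgeR adjusted p of 1. Camk2a bin 1, the outermost 14 bases of the 5′ untranslated region, held 45, 58 and 46 reads in the knockout, 66 in dentate gyrus and 55, 71 and 84 in wild-type Ammon's horn. Its usage log2 fold change in the knockout was -0.37 (SE 0.18, edgeR adjusted p = 1).

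In the dentate gyrus the smallest p belonged to Camk2b bin 47, 46 bases in the 5′ untranslated region (chromosome 11, 6065613 to 6065658). It held 9, 23 and 15 reads in the knockout, 72 in dentate gyrus and 14, 32 and 29 in wild-type Ammon's horn. Its usage log2 fold change there was 0.99 (SE 0.29), with an unadjusted p of 0.000734 and an edgeR adjusted p of 0.199, not called. Bin 38 of Camk2b, 3785 bases that belong only to a non-coding transcript within the gene, held 15, 29 and 18 reads in the knockout, 55 in dentate gyrus and 18, 17 and 18 in wild-type Ammon's horn (usage log2 fold change in the dentate gyrus 1.09, SE 0.32, edgeR adjusted p = 0.23). Bin 20 of Camk2a, at the start of a shorter transcript inside the gene, held 4, 9 and 3 reads in the knockout, 25 in dentate gyrus and 7, 4 and 8 in wild-type Ammon's horn, too few to enter the test.

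For the remaining genes the bins with the smallest p had usage log2 fold changes in the knockout of -0.06 for Nrgn bin 2, -0.16 for Calm3 bin 1, 0.19 for Camk2g bin 12, -0.37 for Camk2d bin 35, -0.41 for Camk4 bin 5 and -0.45 for Calm2 bin 6, each with an edgeR adjusted p of 1. For the dentate gyrus they were -0.11 for Calm3 bin 7, 0.11 for Nrgn bin 1, 0.15 for Camk2a bin 5, 0.20 for Camk2g bin 17, 0.36 for Camk4 bin 4, -0.43 for Camk2d bin 64 and -0.44 for Calm2 bin 6, again with an edgeR adjusted p of 1. Bins of Camk2d are named by number because their positions could not be rebuilt. Camk4 reads were concentrated in its last bin, with 81.9% of them in the knockout, 78.8% in dentate gyrus and 79.7% in wild-type Ammon's horn. The gene table held 1.93 ± 0.03 times the exon-bin reads of Camk4 in the knockout, 1.94 in dentate gyrus and 1.92 ± 0.05 in wild-type Ammon's horn (SD, n = 3). For Camk2a the ratio was 1.39 ± 0.04 in the knockout, 1.36 in dentate gyrus and 1.40 ± 0.05 in wild-type Ammon's horn. The other 6 genes had ratios between 0.91 and 1.16 in the group means and the dentate gyrus. Over all genes the gene table also held more than the exon bins, with 61204108 against 34308516 counts in knockout library 1. A read that touches 2 bins is counted in each, so these ratios do not give the part of the reads outside the bins.

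Around the 8 genes, 95 further genes of calmodulin signalling were grouped in 9 lists. None of the 91 tested in the knockout was called, beside 0.0745% of all genes, and 5 had an unadjusted p under 0.05, beside 8.38% of all genes. Of 92 tested in the dentate gyrus 28 rose and 22 fell, where 11.2% of all genes were called higher and 10.9% lower. Their median log2 fold change was 0.06 in the dentate gyrus, beside -0.01 over all genes.

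In the list of calmodulin-like genes Calml4 had the smallest knockout p (log2 fold change 0.42, SE 0.13, edgeR adjusted p = 0.423). With exon-bin sums Calml4 had a log2 fold change of 1.15, and it was not called under any alternative (adjusted p between 0.229 and 0.92). Calm4, Calm5 and Calml3, known from skin and other epithelia, had no counts.

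Of the other CaM kinases and their upstream kinases, 3 of 13 rose and 4 fell in the dentate gyrus. Camkk1, which activates CaM kinases I and IV, rose by 0.80 on the log2 scale (edgeR adjusted p = 9.06e-05), with 222.1 CPM in the dentate gyrus and 127.3 ± 4.04 CPM in wild-type Ammon's horn. Dapk1, a calmodulin-regulated death-associated kinase, rose by 0.71, whereas the CaM kinase I genes Camk1g and Camk1 fell by 1.30 and 0.68. Camkk1 thus stood higher in the dentate gyrus, and Camk4, which it can activate, lower. In the knockout Phkg1 had the smallest p of the list, with a log2 fold change of -0.12 (edgeR adjusted p = 0.612).

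Of 8 CaMKII inhibitors and opposing phosphatases, 2 rose and 2 fell in the dentate gyrus. Ppp1r1a, protein phosphatase inhibitor 1, rose by 0.81 (edgeR adjusted p = 0.000519). Camk2n1, an inhibitor of CaMKII, rose by 0.28, and the catalytic subunit genes Ppp1ca and Ppp1cc of protein phosphatase 1 fell by 0.25 and 0.24. These last 3 calls were lost when only the wild-type libraries were fitted, with edgeR adjusted p = 0.0673, 0.0961 and 0.104. Ppp1cc, with an edgeR adjusted p of 0.0468, also lost its call with exon-bin sums (log2 fold change -0.13, edgeR adjusted p = 0.254), with no low-count filter (0.0597), and without knockout library 2 or 3 or wild-type library 1 or 2 (0.067 to 0.0855). Camk2n1 lost its call without knockout library 2 or wild-type library 2 or 3, and Ppp1ca without knockout library 2 or 3 or wild-type library 2. Of 10 genes of calcineurin, the calmodulin-dependent phosphatase, and its regulators, Cabin1 rose by 0.44, Ppp3ca by 0.37, and Rcan2 fell by 0.90, and 7 were not called.

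Of 13 genes whose proteins bind or buffer calmodulin, 4 rose and 2 fell. Gap43, a growth cone relative of neurogranin with the same kind of calmodulin-binding site, fell by 1.76, with 48.7 CPM in the dentate gyrus and 165.2 ± 3.52 CPM in wild-type Ammon's horn (edgeR adjusted p = 2.17e-06). Pcp4, a small calmodulin regulator, rose by 0.94, Add2 rose by 0.78, and Pcp4l1 fell by 0.70. Gap43 was thus lower in the dentate gyrus, as Nrgn was, and Pcp4 higher. Of 7 calmodulin-dependent cyclases, phosphodiesterases and the neuronal nitric oxide synthase, Pde1b and Adcy1 rose by 1.41 and 1.28, and Adcy3 and Pde1a fell by 0.57 and 0.54. Pde1b had 143.8 CPM in the dentate gyrus and 54.1 ± 1.56 CPM in wild-type Ammon's horn.

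Of 13 synaptic partners of CaMKII, 5 rose and 1 fell in the dentate gyrus. The NMDA receptor subunit gene Grin2a rose by 0.72, Kalrn, an exchange factor activated by CaMKII, by 0.49, Lrrc7 (densin) by 0.46, and Gria1, an AMPA receptor subunit that CaMKII phosphorylates, by 0.36 (edgeR adjusted p = 0.0233, 0.00166, 0.012 and 0.00429). The Grin2a call was lost with DESeq2 (adjusted p = 0.0791) and without wild-type library 1 (edgeR adjusted p = 0.0511). Of 10 genes of the CaMKIV and CREB pathway, 6 rose and 2 fell, with a median log2 fold change of 0.41. Among them the CREB-binding coactivator Crebbp rose by 0.52, the CREB coactivators Crtc3 and Crtc2 by 0.48 and 0.47, and Hdac4, a deacetylase that CaM kinases send out of the nucleus, fell by 0.52. The Crtc2 call (edgeR adjusted p = 0.0449) was lost with exon-bin sums (log2 fold change 0.30, edgeR adjusted p = 0.155). It was also lost with wild-type libraries only (0.0629) and without knockout library 2 (0.0626), wild-type library 1 (0.0799) or wild-type library 3 (0.0727), these values being edgeR adjusted p. Camk4 itself was lower, as given above.

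Of 16 other calcium sensors and EF-hand buffers, 4 rose and 8 fell. Calb2 (calretinin) rose by 2.87 and Pvalb (parvalbumin) fell by 1.61, while Hpcal1 and Ncald rose by 1.04 and 0.83. Pvalb, a marker of a class of interneurons, is itself 1 of the 8 interneuron markers. These summed to 511.8 CPM in the dentate gyrus and 600.6 to 678.7 CPM in wild-type Ammon's horn. Of the 8, 5 fell in the dentate gyrus and 1 rose, and their part in the Pvalb value was not tested. In the knockout the smallest p of each remaining list belonged to Crem (log2 fold change -0.31, edgeR adjusted p = 0.383), Pde1b (0.13, 0.518), Rasgrf1 (0.13, 0.525), Hpca (-0.14, 0.525), Cabin1 (0.11, 0.619), Pcp4 (-0.13, 0.626) and Ppp1ca (-0.09, 0.68), none of them called.

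**Figure D5:**
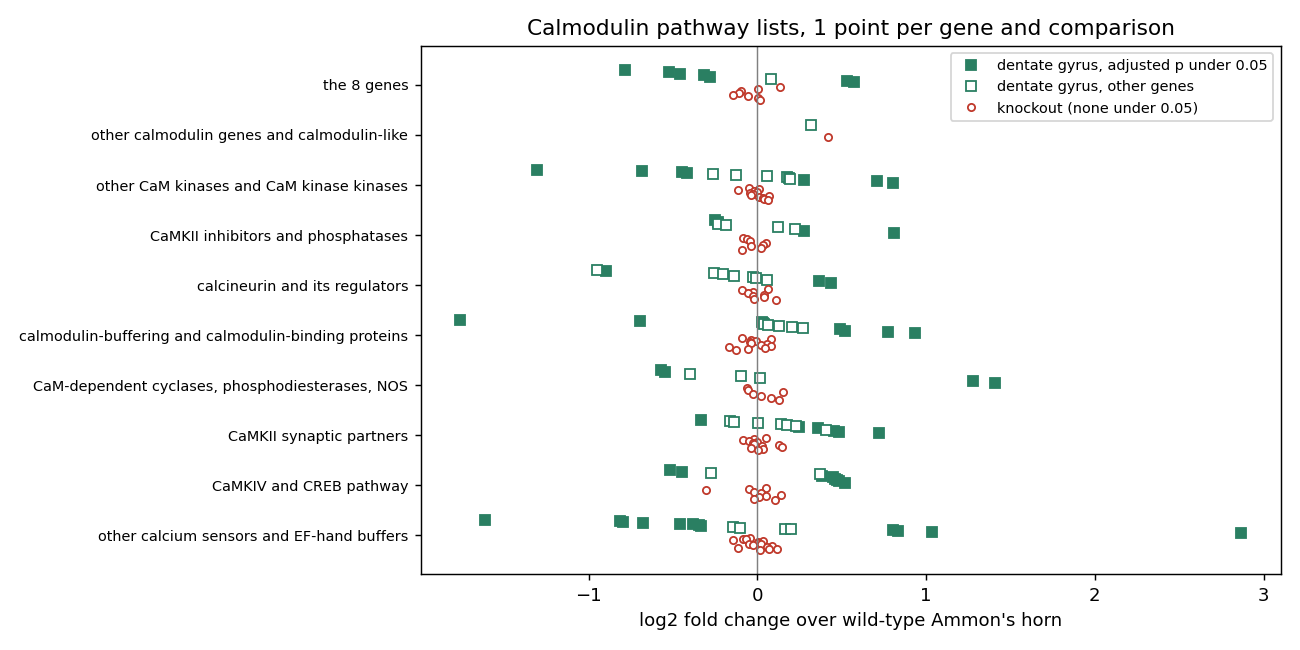
Log2 fold change over wild-type Ammon's horn of the 8 genes and of the 9 calmodulin pathway lists, with 1 square per gene shown for the dentate gyrus and 1 circle for the knockout. Filled squares had an edgeR adjusted p under 0.05. Dentate gyrus values spread on both sides of 0, from -1.76 for Gap43 to 2.87 for Calb2, while no knockout value was called.

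Each of the 8 genes was also set beside 3775 other protein-coding genes with a mean of at least 50 CPM by the Pearson r of log2 CPM over the 7 libraries. Among the 2 most alike of each were Ppm1b and Rps3a2 for Calm2 (r = 0.994 and 0.986), Cdk5r2 for Calm3 (0.983), Yjefn3 and Ndufa13 for Nrgn (0.988 each) and Rap2a and Gspt1 for Camk2a (0.98 and 0.958). For Camk2b they were Cacna1h, a T-type calcium channel gene, and Abr (0.997 and 0.995), for Camk2g Elmo2 and Lrrc4 (0.998 and 0.997), for Camk2d Tbc1d9 and Rhbdd2 (0.99 and 0.974) and for Camk4 Pcyox1 (0.978). The libraries share a single dentate gyrus point that stands apart, and over the 6 Ammon's horn libraries alone the pairs named had r between 0.874 for Camk2b with Abr and 0.979 for both Calm2 with Ppm1b and Camk2a with Rap2a. These are descriptions picked as the highest of many.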

How the data were processed

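Polyadenylated RNA of adult mouse hippocampus was prepared with Qiagen RNeasy Plus and Illumina TruSeq mRNA kits, per the labels' protocols. The authors deposited raw counts, per gene with introns and per DEXSeq exon bin, with no normalization. The build mm10 and the tools TopHat2 2.0.8b, DESeq2 1.0.19, Trim Galore 0.3.5 and bedtools 2.17.0 are named per the submitters' processing notes, without their roles. Tests used edgeR 4.0.16 in R 4.3.3 (TMM, filterByExpr, glmQLFit and glmQLFTest), over 6 libraries for the knockout and 7 for the dentate gyrus, with Benjamini-Hochberg adjustment. The biological coefficient of variation was 10.6% and 10.8%. Exon usage was tested by diffSpliceDGE in bins with at least 10 reads in 3 libraries. Alternatives used DESeq2 1.42.0 and limma 3.58.1. Scripts were tested on simulated data. Bin positions were rebuilt from GENCODE M21. Shares were compared by exact permutation tests. The genes, lists and rules were chosen with earlier results of these data known. The text names all 8 genes, up to 4 called genes per list by size of change (otherwise the smallest p), the smallest-p bin per gene, and the linker exons, chosen after their values were seen, as were bins 20 of Camk2a and 38 of Camk2b. Some genes of the lists and of the likeness ranking were counted but are not reported here by name.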

Additional observations from a re-analysis of the deposited data

How the results depend on the processing

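Of the 8 genes, 0 were called for the knockout and 7 for the dentate gyrus under every alternative run. The alternatives were other size factors, no low-count filter, DESeq2, limma-voom, exon-bin sums, no mitochondrial genes and each Ammon's horn library left out. A choroid plexus covariate (knockout) and wild-type libraries only (dentate gyrus) were also run. The dentate gyrus library, which has no replicate, was never left out. No exon bin of the 8 genes was called under any alternative. Pathway list calls stayed at 0 for the knockout and lay between 43 and 53 for the dentate gyrus, against 50. Knockout log2 fold changes near 0 changed sign with exon-bin sums for Camk2b (-0.0233), Camk2g (-0.00543) and Camk4 (-0.0120), and with the choroid plexus covariate for Camk2d (-0.0219). With a library left out they ranged from -0.0144 to 0.0393 for Camk2b, -0.0189 to 0.0495 for Camk2g, -0.0584 to 0.134 for Camk4 and -0.0106 to 0.251 for Camk2d. The knockout difference in share ranged from -1.20 to -0.0212 points for Camk2a, from -0.190 to 0.669 points for Camk2b, from 0.0801 to 0.412 points for Camk2d, from -0.0135 to 0.189 points for Camk2g and from 0.445 to 2.62 points for Calm2 in Calm2 plus Calm3 when a library was left out. From gene-table counts per kilobase of gene span it was 0.0314 points for Camk2d and 0.826 points for Calm2. Usage of Calm2 bin 6, a bin of at most 32 reads, turned to 0.0409 (knockout) and 0.0733 (dentate gyrus) with limma-voom. The cause of these turns was not tested. All genes called in the knockout numbered 17, but 119 with DESeq2, 10 with limma-voom, 8 with exon-bin sums, 4 without mitochondrial genes, 28 with the choroid plexus covariate and 11 to 55 with a library left out (55 without knockout library 2). Exon bins called over all genes numbered 5 in the knockout, 4 to 8 under alternatives, and 360 in the dentate gyrus, 214 with at least 30 reads, 553 with limma-voom and 196 without wild-type library 1. With that minimum of 30 reads, Calm2 bin 6, Camk2b bin 22 and Camk2b bin 47 were not tested. No paired analysis was possible because the labels give the libraries no replicate numbers in common. The dentate gyrus comparison rests on a single library.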
